A study of Mus musculus with 6 samples.

Results

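Bco1 and Rbp7 are 2 of the 1386 genes and loci in the authors' table of genes that differed between mice given Akkermansia muciniphila and mice given PBS. They were taken by gene name: Bco1 was listed there as higher and Rbp7 as lower with the bacterium. RNA came from the intestinal epithelium of wild-type mice on regular chow. From 8 weeks of age, for 7 weeks, the mice received by daily gavage either 400000000 Akkermansia muciniphila (Akk), a bacterium that lives on intestinal mucus, or PBS, the carrier without bacteria. Each group had 3 libraries. The labels do not say whether a library came from a single mouse or from pooled mice, so the spread given here is between libraries and could in part be technical.

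Bco1 encodes the enzyme that cleaves dietary beta-carotene at its centre to retinal, the step by which an animal makes vitamin A from plants. The enterocyte, the absorptive cell of the villus, is its main site in the gut, and its transcription there is held down by Isx, a homeodomain repressor that retinoic acid induces. Retinal is then reduced to retinol, bound by small cytosolic retinol-binding proteins, esterified by the enzyme Lrat and packed into chylomicrons. Rbp7 encodes one of these cytosolic proteins, cellular retinol-binding protein III, a member of the family of intracellular lipid-binding proteins that also holds the fatty acid-binding proteins. It is best known from fat tissue and endothelium, while Rbp2 is the form usually described as the retinol carrier of the enterocyte.

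Because the genes differ in direction, the bases directly before their start sites are shown, as RefSeq gives them for GRCm38.p6. Capitals mark a direct repeat of the nuclear receptor half-site (AGGTCANAGGTCA, read on either strand) and the TATA motif TATAAA.
Bco1: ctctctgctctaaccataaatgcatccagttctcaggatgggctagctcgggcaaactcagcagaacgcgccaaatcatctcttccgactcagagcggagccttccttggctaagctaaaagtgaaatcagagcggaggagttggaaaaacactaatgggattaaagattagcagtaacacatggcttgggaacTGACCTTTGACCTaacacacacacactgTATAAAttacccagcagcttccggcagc
Rbp7: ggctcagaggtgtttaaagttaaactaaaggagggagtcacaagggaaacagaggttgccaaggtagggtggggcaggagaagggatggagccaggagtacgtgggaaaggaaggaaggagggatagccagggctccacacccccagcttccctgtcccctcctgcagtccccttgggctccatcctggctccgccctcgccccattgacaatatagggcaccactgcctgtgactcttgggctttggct

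The table of RefSeq promoters holds 1 window for each gene. The Bco1 stretch is chr8:117095615-117095864 on the plus strand, and the Rbp7 stretch is chr4:149454969-149455218 on the minus strand, 250 bases each. RefSeq extends the Rbp7 gene body upstream to 149466462, so the Rbp7 window lies within it, before the start site at 149454968, and starts farther upstream were not searched. Bco1 had a full repeat, TGACCTTTGACCT on the coding strand, at bases -56 to -44 from its start site. This arrangement is the consensus for the PPARs, which bind paired with the retinoid X receptor, and for the hepatocyte nuclear factor HNF4A. The same motif stood in 11 of 32851 RefSeq promoter windows of this length, or 0.0335%. Among the windows of genes in the authors' table it stood in 1 of 283 for genes listed as higher, which is that of Bco1, and in 0 of 999 for genes listed as lower. The half-site AGGTCA, of which the repeat holds 2, stood at least once on either strand in 14.0% of all windows. TATAAA stood at -28 to -23 in Bco1 and in 12.4% of all windows on either strand. The Rbp7 window held none of these motifs, nor TAATTA, a longer form of the core TAAT that many homeodomain proteins bind. TAATTA was also missing from Bco1 and present in 4.84% of all windows. The core itself, TAAT or ATTA, was not counted over all windows and does occur in the Bco1 stretch shown. The Bco1 window had a GC content of 48.0% and that of Rbp7 58.4%. A match describes letters only; binding was not measured here.

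Bco1 (ENSMUSG00000031845) lies on chromosome 8, from 117095854 to 117133720 on the plus strand of GRCm38, the assembly that mm10 names, with 11 exons in its longest GENCODE M21 transcript. Rbp7 (ENSMUSG00000028996) lies on chromosome 4, from 149449687 to 149454978 on the minus strand, with 4 exons. The longest transcripts are 2338 and 619 bases, and the lengths implied by the deposited counts and FPKM were 2393 and 638 bases. Of the 50-base stretches of their transcripts, 36 of 2542 in Bco1 and 0 of 766 in Rbp7 occurred in transcripts of other genes. A processed pseudogene, Gm20694, lies within Bco1 and overlaps none of its exons, and no annotated gene overlaps Rbp7.

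One library stood apart. Among the 1040 genes listed as lower, 1022 had their highest value in PBS replicate 2, at a median of 5.77 times the mean of the other PBS libraries. Depth recovered from counts and FPKM ran from 32897374 fragments in this library to 41017814 in Akk replicate 1, and the listed genes took 16.9% of the reads in PBS replicate 2 and 8.58% to 12.1% in the other 5. The median fitted log2 fold change of all 1386 listed genes was -1.85, and -0.66 without PBS replicate 2.

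Bco1 had an FPKM (fragment counts scaled for transcript length and library depth) of 10.9, 5.84 and 8.18 in Akk replicates 1 to 3 and of 4.56, 1.58 and 2.13 in PBS replicates 1 to 3. Akk replicate 1 was the highest library and PBS replicate 2 the lowest, and the groups did not overlap, although the lowest Akk library was only 1.28 times the highest PBS library. No overlap held for 37.6% of the 346 genes listed as higher, so nothing is read from it. The means were 8.31 ± 2.535 in Akk and 2.76 ± 1.585 in PBS (SD, n = 3), 3.01-fold higher in Akk, or 2.48-fold without PBS replicate 2. The reads behind these values were 1071, 538 and 706 in Akk and 392, 125 and 196 in PBS. The log2 fold change fitted by edgeR across the whole table was 1.60 (SE 0.68), or 1.32 (SE 0.41) without PBS replicate 2. The table held only genes chosen on this contrast, so these are descriptions of the choice and no test of it is given.

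Rbp7 had an FPKM of 0.903, 0.919 and 1.65 in Akk replicates 1 to 3 and of 5.91, 28.5 and 5.74 in PBS replicates 1 to 3. Akk replicate 3 was the highest of its group, 1.82 times the lowest, PBS replicates 1 and 3 were nearly equal, and PBS replicate 2 was 4.89 times the mean of those. The groups did not overlap, and the lowest PBS library was 3.48 times the highest Akk library; no overlap held for 86.6% of the 1040 genes listed as lower, so nothing is read from it here either. The means were 1.16 ± 0.425 in Akk and 13.4 ± 13.1 in PBS (SD, n = 3), 11.6-fold higher in PBS, and 5.03-fold without PBS replicate 2. The fitted log2 fold change was -3.51 (SE 0.91), or -2.32 (SE 0.35) without that library. Read counts were 24, 23 and 38 in Akk and 137, 594 and 140 in PBS. The exact 95% Poisson intervals of the Akk counts, 15.4 to 35.7, 14.6 to 34.5 and 26.9 to 52.2, overlap one another and cover counting error only.

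**Figure D1:**
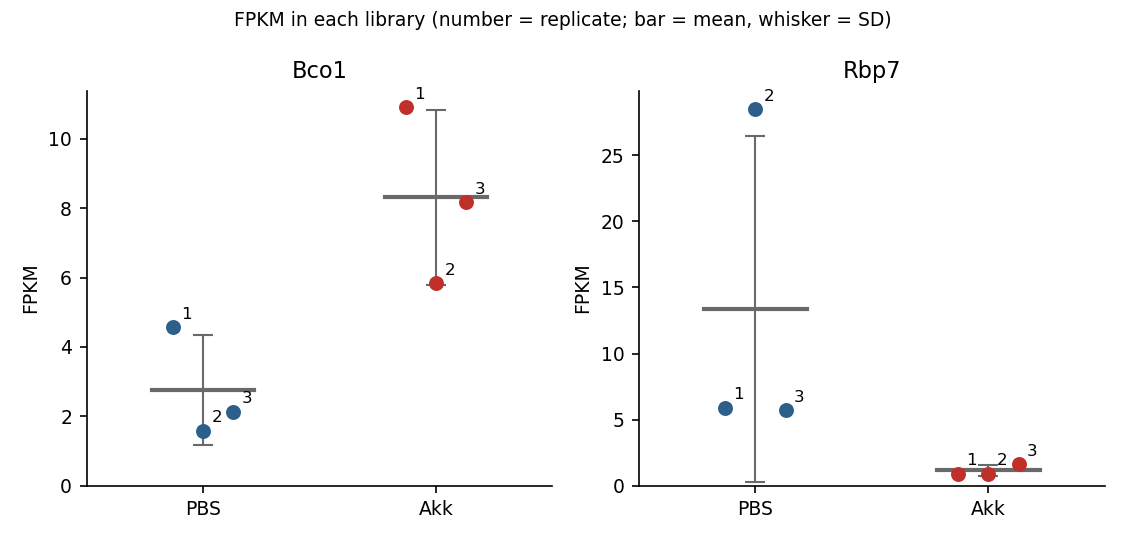
FPKM of Bco1 (left) and Rbp7 (right) in each library, with PBS in blue, Akk in red, the replicate number beside each point, a bar at the group mean and whiskers of 1 SD (n = 3). The Akk libraries of Bco1 lie between 5.84 and 10.9 above all PBS libraries, and those of Rbp7 between 0.903 and 1.65 below all PBS libraries, of which replicate 2 stands apart at 28.5.

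The authors' deposited table gave Bco1 a p-value of 0.00206 and a log2 fold change of 1.39, and Rbp7 a p-value of 5.07e-06 and a log2 fold change of -2.12. The table reached up to a p-value of 0.0498 and down to a 1.5-fold difference, and both genes stood well inside these limits. The authors' log2 fold change of Rbp7 was smaller in size than the log2 ratio of mean FPKM, which was -3.53, and close to the same ratio without PBS replicate 2, which was -2.33. For Bco1 these ratios were 1.59 and 1.31.

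By the size of the fitted fold change Rbp7 was number 75 of the 1040 genes listed as lower with all libraries and number 12 without PBS replicate 2. Relative to the median of all listed genes its log2 fold change was -1.66 both with and without that library. On this scale Bco1 lay at 3.45 with all libraries and at 1.98 without PBS replicate 2. Bco1 was number 36 of the 346 genes listed as higher with all libraries and number 53 without PBS replicate 2. By mean FPKM, which scales for length, Bco1 was number 343 of the 1386 genes in Akk and number 1006 in PBS, whereas Rbp7 was number 866 in Akk and number 433 in PBS.

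**Figure D2:**
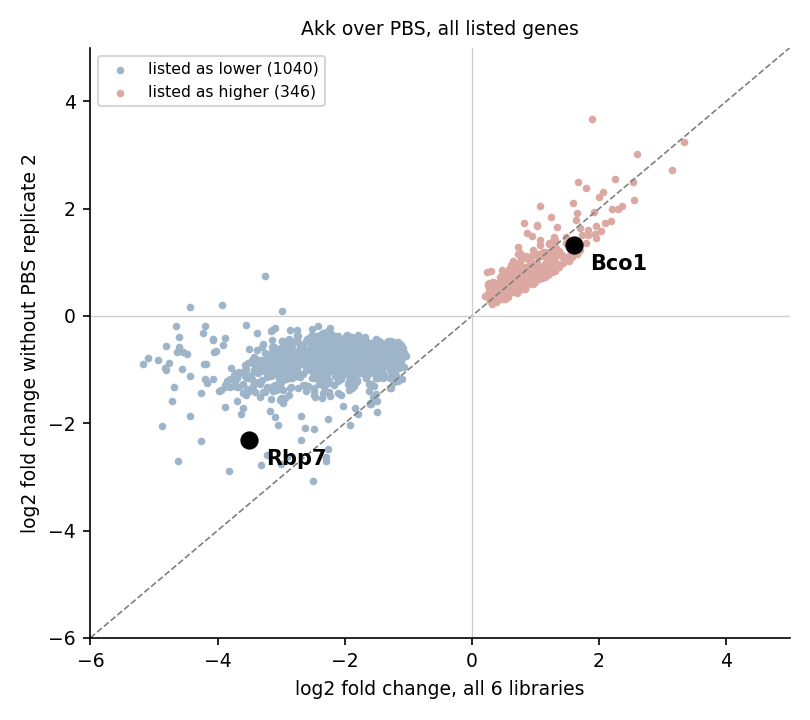
Log2 fold change of each listed gene, Akk over PBS, as fitted with all 6 libraries (horizontal axis) and without PBS replicate 2 (vertical axis), with genes listed as lower in blue, genes listed as higher in pink and the dashed line marking equal values; 2 genes lie outside the axes. Rbp7 goes from -3.51 to -2.32 and lies below most of the genes listed as lower, and Bco1 goes from 1.60 to 1.32, near the dashed line.

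The levels of the 2 genes within a library can be set side by side, since FPKM scales for length. The ratio of Bco1 to Rbp7 in FPKM was 12.1, 6.36 and 4.97 in Akk replicates 1 to 3 and 0.772, 0.0555 and 0.372 in PBS replicates 1 to 3. Bco1 was thus the more abundant transcript per length in all 3 Akk libraries and the less abundant in all 3 PBS libraries. PBS replicate 2 had the lowest ratio. Both genes already part the groups, in opposite directions, so the separation of their ratio follows from their own values and adds nothing to them.

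Of 56 genes in 7 lists of vitamin A and carotenoid handling, 5 were in the table, 3 of them higher in Akk and 2 lower, and in all 5 the groups did not overlap (74.4% of all listed genes). Their median fitted log2 fold change was 1.0 against -1.85 for all listed genes, and 0.79 against -0.66 without PBS replicate 2; with 3 genes higher and 2 lower it is the value of Rdh5, and nothing is read from it. Among the 7 genes of uptake and cleavage, Bco1 and Stra6l were listed; Stra6l encodes a membrane receptor for plasma retinol-binding protein. Of the 8 binding proteins Rbp7 was the single one listed. The wider family of 15 intracellular lipid-binding proteins, which includes the fatty acid-binding proteins, also had Rbp7 as its single listed member. Of 5 genes of retinyl ester synthesis and hydrolysis Lrat was listed, and of 22 enzymes that interconvert retinol, retinal and retinoic acid Rdh5. None of the 3 Cyp26 enzymes that break down retinoic acid, the 6 retinoid receptors or the 5 retinoic acid target genes was listed, and Isx was not either. For a gene outside the table, a small difference and a transcript too low to measure cannot be told apart here. Of 27025 genes with a RefSeq promoter window, expressed here or not, 225 were listed as higher and 802 as lower. The share among expressed genes is not known, so nothing is read from the number listed.

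Lrat, which esterifies retinol for storage and for export in chylomicrons, had an FPKM of 5.57, 7.11 and 3.57 in Akk replicates 1 to 3 and of 2.58, 2.73 and 2.15 in PBS. The 3 PBS libraries were close together, with PBS replicate 2 the highest of them, so for Lrat that library did not stand apart. The means were 5.42 ± 1.77 and 2.49 ± 0.303 (SD, n = 3), a fitted log2 fold change of 1.12 (SE 0.55), or 1.2 (SE 0.32) without PBS replicate 2.

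Rdh5, a retinol dehydrogenase best known from the retinal pigment epithelium, had 5.13, 3.54 and 3.97 FPKM in Akk and 2.09, 1.37 and 2.83 in PBS. Its highest library was Akk replicate 1 and its lowest PBS replicate 2, as for Bco1. The fitted log2 fold change was 1.0 (SE 0.58), or 0.79 (SE 0.30) without PBS replicate 2.

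Stra6l had 0.503, 0.668 and 0.558 FPKM in Akk and 1.15, 3.15 and 0.705 in PBS. Its groups were parted by a factor of only 1.05, between PBS replicate 3 and Akk replicate 2, and its authors' deposited p-value was 0.0475, just inside their limit. The fitted log2 fold change was -1.51 (SE 0.73) and was -0.69 (SE 0.30) without PBS replicate 2. Scaling factors computed from the listed genes brought it to -0.01 (TMM) and 0.05 (RLE). They moved the median of all listed genes by 1.64 (TMM) and 1.7 (RLE) on the log2 scale. Relative to the median of all listed genes Stra6l lay at 0.34 with the recovered depth and at 0.20 with either set of factors, so it did not lie below that median in these fits.

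The patterns over the 6 libraries were compared as the root-mean-square difference of log2 CPM (counts scaled for library depth), each gene centred on its own mean, over the other 1321 listed genes with a name. The genes most like Bco1 were Plod1 (0.408), a lysyl hydroxylase of collagen, Ctsl (0.478), the lysosomal protease cathepsin L, and Tcim (0.482), against a median of 1.96 over all genes compared. Rdh5 came seventh in this order (0.570) and Lrat was number 60 (0.718). The genes most like Rbp7 were Srm (0.341), spermidine synthase, Ddias (0.348) and Hnrnpa3 (0.369), an RNA-binding protein, against a median of 0.939. All genes compared share the same 6 libraries, and most were listed as lower and highest in PBS replicate 2, as Rbp7 was. The median for Bco1 is thus mostly over genes listed in the other direction. Bco1 and Rbp7 differed by 2.68 from each other. Without PBS replicate 2, only Ctsl of the 3 genes stayed among the nearest 3 of Bco1, and only Hnrnpa3 among those of Rbp7. In that setting Rdh5 was number 22 and Lrat number 23 in the order for Bco1.

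**Figure D3:**
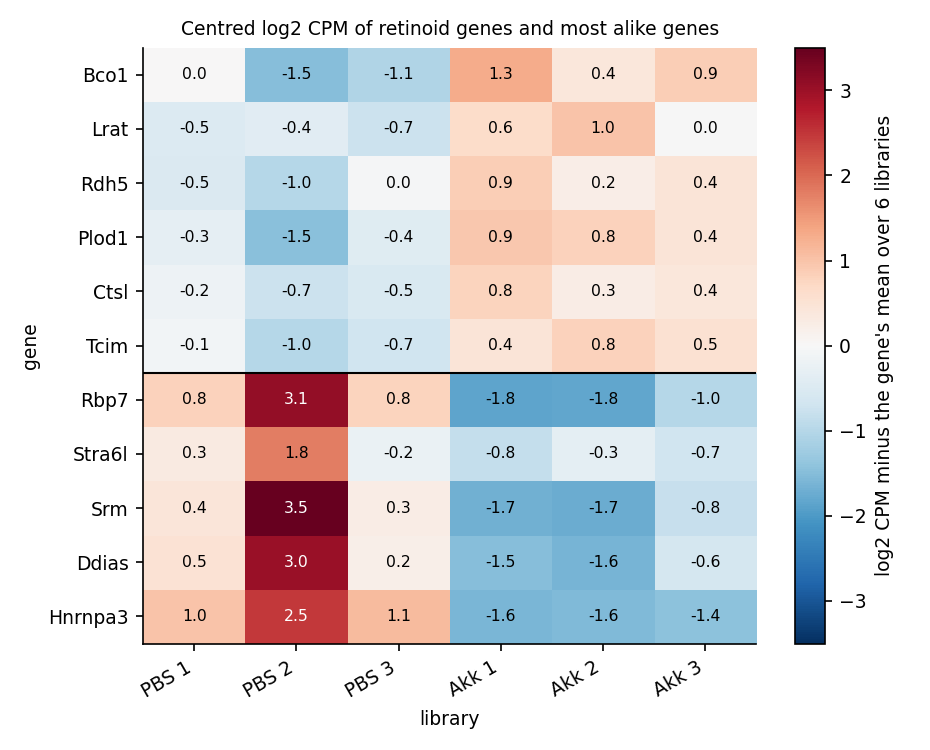
Log2 CPM of each gene minus its mean over the 6 libraries, for the 5 listed vitamin A genes and the 3 genes most like Bco1 (above the line) and Rbp7 (below it); red is above and blue below the gene's mean. Rbp7 goes from -1.84 in Akk replicate 1 to 3.08 in PBS replicate 2, and Bco1 from -1.49 in PBS replicate 2 to 1.29 in Akk replicate 1.

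Within 1 Mb of Bco1, 1 of 14 protein-coding genes was in the table, Hsd17b2, a steroid dehydrogenase 568184 bases away. It was listed as higher, with 27.3, 28.1 and 11.8 FPKM in Akk and 9.89, 11.3 and 13.4 in PBS, so that Akk replicate 3 lay among the PBS libraries. Within 1 Mb of Rbp7, 3 of 31 protein-coding genes were listed: Srm, Exosc10, a subunit of the RNA exosome, and Tmem201, an inner nuclear membrane protein. All 3 were listed as lower, as were 1040 of the 1386 genes in the table, so nothing is read from their shared direction. The share of expressed genes that was listed is not known, so nothing is read from the number of listed neighbours either. Srm, the gene with the pattern most like that of Rbp7, had 0.318, 0.3 and 0.582 FPKM in Akk and 1.39, 12.1 and 1.22 in PBS and lies 854694 bases away.

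Markers of cells an epithelial preparation can hold were listed as well, and for some of them the groups overlapped. Of 23 mature enterocyte genes 7 were listed, among them Apoa4, Apoc3 and Apob. All 7 were listed as higher in Akk, as were 346 of the 1386 genes in the table. So were 225 of the 27025 genes with a RefSeq promoter window. The groups did not overlap in 4 of the 7 (37.6% of all genes listed as higher). PBS replicate 2 was the lowest library for 6 of the 7, and for 149 of the 346. The summed FPKM of the 7 was 5385 to 6785 in Akk and 729.9 to 4154 in PBS, lowest in PBS replicate 2. Bco1 as a share of this sum was 0.185%, 0.0861% and 0.152% in Akk replicates 1 to 3 and 0.183%, 0.217% and 0.0514% in PBS, so relative to these genes the groups overlapped. Such genes are in the table because they passed the same choice, and in bulk RNA fewer cells of a type and less RNA per cell cannot be told apart. The part of enterocyte number in the Bco1 difference was not tested. The 3 listed genes of the proximal small intestine, S100g, Slc40a1 and Cybrd1, of 11 on that list, summed to 6.97, 17.9 and 116 FPKM in Akk and 12.9, 14.3 and 5.22 in PBS. Their sum was highest in Akk replicate 3, while Bco1 was highest in Akk replicate 1, where the sum was below that of PBS replicates 1 and 2.

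Crypt markers were highest in PBS replicate 2, as Rbp7 was. Of 12 proliferation genes 11 were listed, of 8 stem cell genes 4 and of 9 Paneth cell genes 8, all as lower in Akk. So were 1040 of the 1386 genes in the table, of which 1022 were highest in PBS replicate 2. Of the 27025 genes with a RefSeq promoter window, 802 were listed as lower, and the share among expressed genes is not known. The proliferation genes summed to 13.8 to 23.0 FPKM in Akk and 35.5, 323 and 27.1 in PBS replicates 1 to 3. The stem cell genes summed to 5.23 to 8.12 in Akk and 10.4, 579 and 12.4 in PBS, and the Paneth cell genes to 156 to 187 in Akk and 195, 8147 and 219 in PBS. The median log2 fold changes of the proliferation, stem cell and Paneth cell genes were -3.1, -4.45 and -4.13. Without PBS replicate 2 they were -0.88, -1.07 and -0.45, against -0.66 for all listed genes. Rbp7 relative to the proliferation sum was 0.0654, 0.0537 and 0.0716 in Akk and 0.166, 0.0882 and 0.211 in PBS, without overlap. Relative to the stem cell sum it was 0.161, 0.113 and 0.315 in Akk and 0.570, 0.0492 and 0.463 in PBS, so that PBS replicate 2 fell below all Akk libraries and PBS replicates 1 and 3 stayed above them. The Paneth cell sum gave the same order, with 0.00580, 0.00569 and 0.00883 in Akk and 0.0303, 0.00350 and 0.0263 in PBS. The 4.89-fold excess of Rbp7 in PBS replicate 2 was thus smaller than that of the crypt marker sums. The part of crypt cells in the Rbp7 difference was not tested.

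No marker of the other cells in which Rbp7 is known was listed, with 0 of 15 endothelial and 0 of 10 adipocyte genes, and neither was any of 11 stromal and 13 immune genes. Their levels are not analysed here. The authors' table holds no values for genes outside it, so these counts do not show whether such cells were present.

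**Figure D4:**
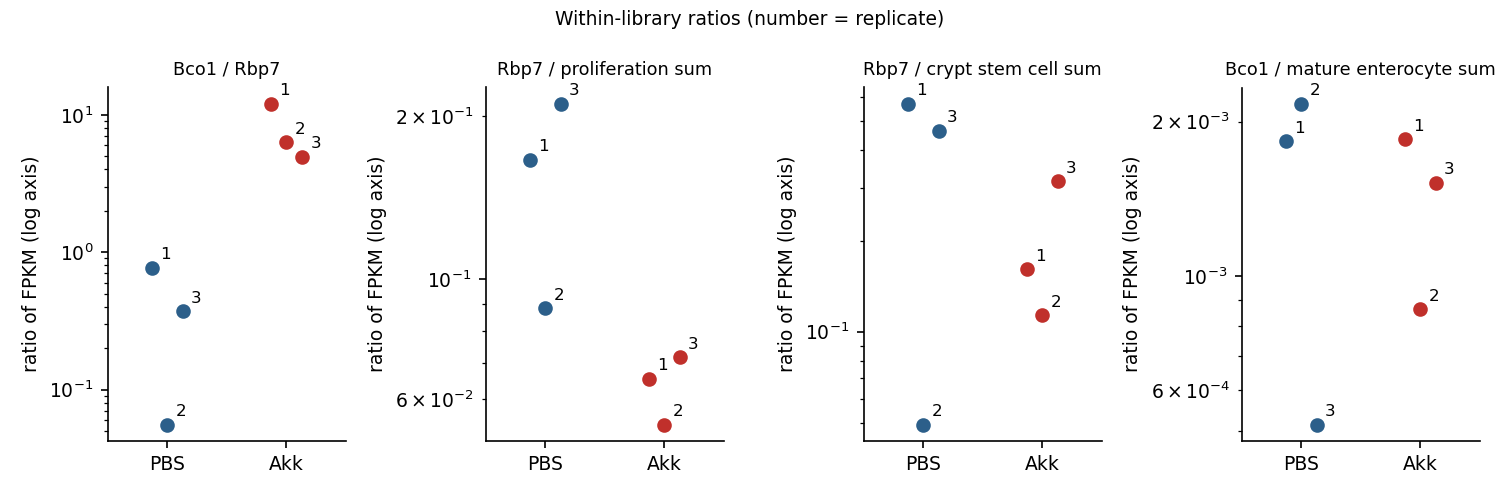
Ratios of FPKM within each library on log axes, for Bco1 over Rbp7, Rbp7 over the summed proliferation genes, Rbp7 over the summed stem cell genes and Bco1 over the summed enterocyte genes; PBS is in blue, Akk in red, and numbers are replicates. Bco1 over Rbp7 lies between 4.97 and 12.1 in Akk, Rbp7 over the proliferation genes between 0.0537 and 0.0716, PBS replicate 2 falls to 0.0492 for Rbp7 over stem cell genes, and the Bco1 share of the enterocyte sum overlaps.

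Both genes kept their direction under each setting tried. They were chosen on this contrast and their groups did not overlap, so this is no test of the direction. The log2 fold change of Bco1 ranged from 1.31 to 2.44 over 16 alternatives, and that of Rbp7 from -3.87 to -1.76. The scaling factors computed from the listed genes, most of which are lower in Akk, gave the largest value for Bco1 and the smallest in size for Rbp7; they moved the median of all listed genes by 1.22 to 1.70 on the log2 scale. Relative to that median, Rbp7 lay at -1.66 with the recovered depth and at -1.60 to -1.61 with the 3 sets of factors, and Bco1 at 3.45 and at 2.59 to 2.69.

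**Figure D5:**
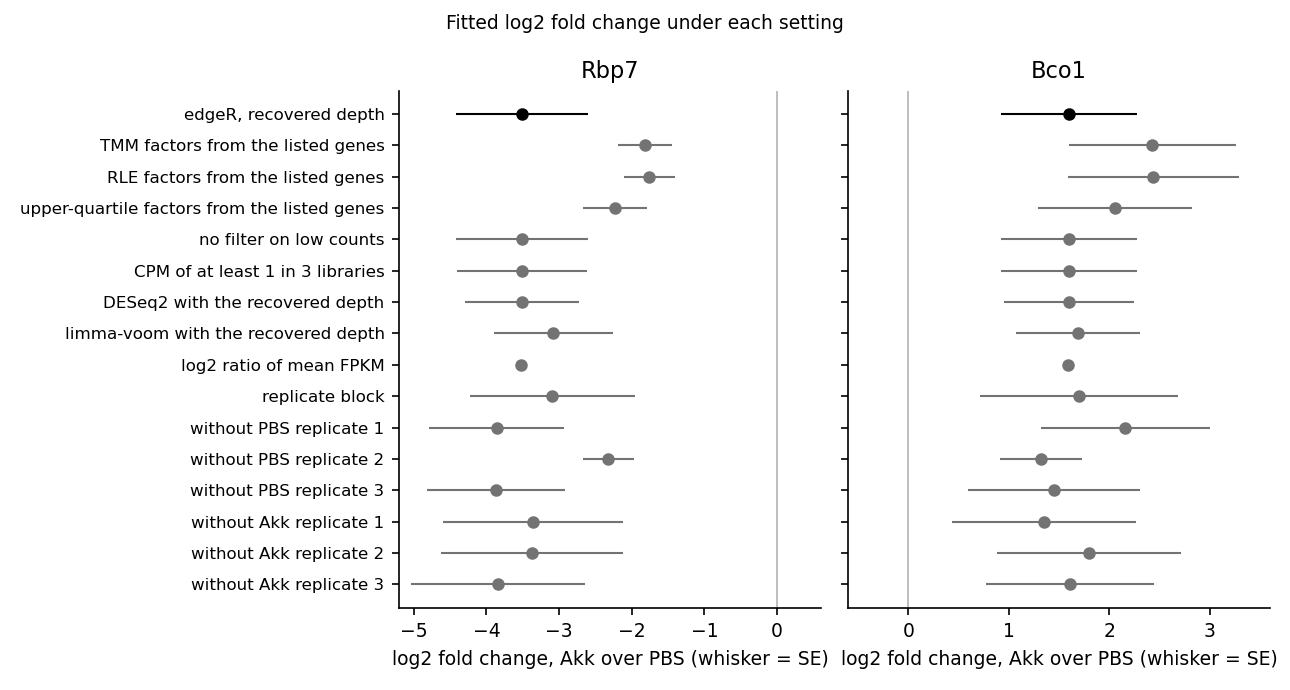
Fitted log2 fold change of Rbp7 (left) and Bco1 (right), Akk over PBS, under each setting, with whiskers of 1 SE (none for the ratio of mean FPKM) and the edgeR fit with the recovered depth in black. Every point of Rbp7 lies below 0, between -3.87 and -1.76, and every point of Bco1 above it.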

How the data were processed

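Per the labels' protocols, total RNA of mouse intestinal epithelial cells was extracted with Trizol and made into Illumina mRNA libraries, and mm10 is the build in the submitters' processing notes. What program aligned, counted (and with which strand setting) and tested is not given in the sources used here. For each library the authors deposited whole-number read counts and FPKM, per the file headers. A p-value, with no word on adjustment, and a log2 fold change (Akk over PBS) stand beside them in the authors' deposited table. The table holds only genes the authors selected, 1386 after 2 lines without values were left out, so its column totals are not depth.

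Relative depth was the median ratio of count to FPKM over 560 genes with at least 200 reads in every library. Its absolute scale used the longest GENCODE M21 transcript of 548 of them; 60.6% of these lay within 0.05 (log2) of the median, against 6.9% with merged exons. All genes were fitted together with edgeR 4.0.16 (quasi-likelihood, filterByExpr, which removed none, R 4.3.3), with the recovered depth as library size and no replicate term. The SE is the log2 fold change over the root of the F statistic. The fit was tested on simulated data in which no library stood apart. That test does not cover the spread that PBS replicate 2 brings. No p of this fit is given, since the genes were chosen on the same contrast. Root-mean-square differences used log2 CPM with 0.5 added to counts. Alternatives were TMM, RLE and upper-quartile factors, other filters, DESeq2 1.42.0, limma 3.58.1 voom, FPKM, a replicate block and each library left out.

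The members and gene lists were chosen with earlier results of these data known. Named genes were the members, the listed genes of the vitamin A lists, the 3 genes with the closest pattern, listed neighbours within 1 Mb and up to 3 markers of a list. Promoters of both members were matched by symbol in RefSeq (GRCm38.p6); protein sequences were not used here.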

Additional observations from a re-analysis of the deposited data

How the results depend on the processing

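TMM and RLE factors from the listed genes gave a log2 fold change of 2.43 and 2.44 for Bco1 and of -1.82 and -1.76 for Rbp7, and upper-quartile factors gave -2.23 for Rbp7. All 3 sets of factors were computed from selected genes, most of them lower in Akk. With 1 library left out at a time, values ran from 1.32 to 2.16 for Bco1 and from -3.87 to -2.32 for Rbp7, the last without PBS replicate 2, where the log2 ratio of mean FPKM, an alternative chosen after seeing the data, was -2.33. The same-numbered libraries are not said to be paired, and after subtraction of group means their correlations were 0.24, -0.05 and -0.29 over the listed genes; with the replicate block the values were 1.70 for Bco1 and -3.09 for Rbp7. Among the 16 alternatives of each gene, 14 for Bco1 and 11 for Rbp7 moved the value by less than the spread between replicates. The setting without a filter repeats the main fit, since the filter removed no gene. No direction was reversed, but both genes were chosen on this contrast, so that is no test. Of the 5 listed vitamin A genes, 4 had an authors' p-value under 0.01 and 4 a fold of at least 2. With log2(FPKM + 0.1) in place of log2 CPM, 2 of the 3 genes most like Bco1 and 1 of the 3 most like Rbp7 were shared. Depth limits the Akk values of Rbp7, which rest on 23 to 38 reads a library.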

Other observations

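The pathway column of the authors' deposited table assigns 8 listed genes to retinol metabolism, of which 6 were higher and 2 lower in Akk. Of all listed genes 346 were higher and 1040 lower. The groups did not overlap in 6 of the 8 (74.4% of all listed genes). The 8 are named here after their values were seen, and nothing is read from these counts. Bco1, Lrat and Rdh5 are 3 of the 8. Cyp3a44, a cytochrome P450, averaged 1.05 ± 0.687 FPKM with the bacterium and 0.193 ± 0.106 with PBS (SD, n = 3), and the groups did not overlap. Cyp1a1, a cytochrome P450 induced through the aryl hydrocarbon receptor, had 41.7, 18.4 and 5.28 in Akk and 5.70, 0.923 and 10.3 in PBS, and Hsd17b6, a steroid and retinol dehydrogenase, had 98.9 ± 34.9 and 48.8 ± 29.9 (SD, n = 3); in both the groups overlapped. The 2 genes listed as lower, Ugt2b36 and Ugt2b35, encode enzymes that couple lipophilic compounds to glucuronic acid. Ugt2b36 had 0.553, 0.566 and 0.543 FPKM in Akk and 1.37, 2.31 and 2.30 in PBS, so that PBS replicate 2 did not stand apart from PBS replicate 3, and its log2 fold change of -1.83 became -1.72 when PBS replicate 2 was left out. Ugt2b35 had 2.18, 1.74 and 3.56 in Akk and 4.53, 11.8 and 5.73 in PBS.

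For Rbp7 the columns of the authors' deposited table name different genes: the protein columns give retinoid-binding protein 7, while the KEGG column gives the enzyme NMNAT1 of another species. Mouse Nmnat1 is a neighbouring gene, 1106 bases beyond the RefSeq Rbp7 gene body, which ends at 149466462 on chromosome 4, past the GENCODE end at 149454978. Nmnat1 itself was not listed. The length behind the FPKM of Rbp7, 638 bases, was within 3.04% of the longest GENCODE Rbp7 transcript.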
